A study of Mus musculus with 10 samples.

Results

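The extremely strong regions of mouse cauda sperm were 86 stretches of chromosomes 1 to 19 at which the peak caller had given at least 1 summit a −log10 p of 60 or more in at least 1 library. They came from 605 such summits among 183672 in all, merged across libraries wherever their intervals shared a base, and they made up 86 of the 113493 merged peak regions of the series. ATAC-seq, in which the Tn5 transposase cuts and tags DNA that is not tightly packed, had been run on sperm from the cauda epididymis, 1 library per mouse. All mice were wild-type C57BL/6JRccHsd males. The 6 F0 CD mice had been kept on a chow maintenance diet, and the 4 F0 WD mice on Western diet #D12079B for 6 months from 4 weeks of age, while the protocol text in the labels gives the 2 numbers the other way round. The groups below follow the sample titles. The labels name no agent or allele other than the diet that differed between the groups, and no control library of purified DNA was used for the peak calls. Because the −log10 p of these libraries chose the regions, their −log10 p, fold and read levels are given as description, and no test of them against other regions was made.

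Most DNA of a sperm head is packed with protamines, and a smaller part keeps nucleosomes. Mouse chromosomes carry long arrays of the major satellite near their centromeres, made of a repeated unit rich in A and T, and arrays of ribosomal RNA genes, of which the reference assembly holds only a small part. Where many copies in the animal are represented by 1 or a few copies in the assembly, reads from all copies are placed on those few, which is what a collapsed locus means. Nuclear copies of mitochondrial DNA can collect reads of the mitochondrial genome in the same way.

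To show the kinds of sequence found under the summits, 11 stretches from strong regions of different classes are printed here from the GRCm38 reference, 5′ to 3′. In the first 2 pairs the bases in capitals are the longest run that both members of a pair share, 52 bases between a copy of the chromosome 9 array and the strongest region of all, and 32 bases between a region in an intron of Gm33838 and one near the start of chromosome 12.
Array copy in Gm10717, chr9:3025483-3025602, plus strand: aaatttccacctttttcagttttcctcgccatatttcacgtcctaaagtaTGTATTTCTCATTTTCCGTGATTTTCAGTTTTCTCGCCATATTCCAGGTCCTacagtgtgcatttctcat
Strongest region, in Gm10800, chr2:98667103-98667222, minus strand: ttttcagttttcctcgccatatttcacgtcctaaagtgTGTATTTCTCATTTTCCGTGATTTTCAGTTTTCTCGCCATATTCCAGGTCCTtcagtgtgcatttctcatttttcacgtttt
Intron of Gm33838, chr9:35305371-35305490, plus strand: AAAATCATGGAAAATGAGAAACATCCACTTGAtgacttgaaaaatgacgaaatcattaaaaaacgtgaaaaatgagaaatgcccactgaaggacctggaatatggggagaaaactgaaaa
Chromosome 12 region, chr12:3109947-3110066, plus strand: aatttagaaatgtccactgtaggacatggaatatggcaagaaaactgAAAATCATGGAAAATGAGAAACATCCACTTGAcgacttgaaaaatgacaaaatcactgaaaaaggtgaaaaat
In the third pair, from beside Gm10800 and from an intron of Chl1, the run in capitals is 35 bases long.
Between Gm10801 and Gm10800, chr2:98664983-98665137, plus strand: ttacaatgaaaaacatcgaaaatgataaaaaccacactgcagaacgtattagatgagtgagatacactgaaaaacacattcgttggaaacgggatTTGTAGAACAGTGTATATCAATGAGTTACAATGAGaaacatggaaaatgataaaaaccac
Intron of Chl1, chr6:103649103-103649257, minus strand: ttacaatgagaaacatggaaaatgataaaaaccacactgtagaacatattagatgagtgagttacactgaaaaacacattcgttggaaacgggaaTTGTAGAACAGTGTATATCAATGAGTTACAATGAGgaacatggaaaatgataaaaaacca
In the next line the 55 bases in capitals are the longest run shared with the annotated ribosomal RNA locus of chromosome 17. In the line after it the 71 bases in capitals are the longest run shared with the mitochondrial chromosome. The lower-case bases of that second line also lie in the mitochondrial alignment described below.
Chromosome 6 ribosomal RNA copy, chr6:3201437-3201556, plus strand: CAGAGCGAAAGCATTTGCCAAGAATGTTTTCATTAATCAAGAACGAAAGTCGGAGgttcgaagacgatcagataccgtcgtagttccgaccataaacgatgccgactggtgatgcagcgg
Nuclear mitochondrial copy in Gm10222, chr1:24612686-24612805, plus strand: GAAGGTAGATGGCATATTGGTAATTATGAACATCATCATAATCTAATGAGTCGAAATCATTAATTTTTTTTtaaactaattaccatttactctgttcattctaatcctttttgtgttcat
The last 3 show short tandem repeats at regions with no counterpart among the other 85, with alternate units of 42, 26 and 25 bases in capitals.
Chromosome 2 region, chr2:3964495-3964614, plus strand: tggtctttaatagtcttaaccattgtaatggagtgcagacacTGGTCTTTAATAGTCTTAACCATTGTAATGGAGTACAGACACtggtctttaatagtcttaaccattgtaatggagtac
Intron of Plcb4, chr2:135988610-135988729, plus strand: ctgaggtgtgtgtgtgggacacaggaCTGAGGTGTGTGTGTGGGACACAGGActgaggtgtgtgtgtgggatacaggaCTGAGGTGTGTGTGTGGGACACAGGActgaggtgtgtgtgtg
Intron of Nkain3, chr4:20191838-20191957, plus strand: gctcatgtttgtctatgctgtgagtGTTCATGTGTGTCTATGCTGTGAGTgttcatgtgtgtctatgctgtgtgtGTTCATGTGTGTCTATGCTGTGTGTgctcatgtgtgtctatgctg

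Every one of the 86 regions held a peak in all 10 libraries, so the regions did not differ between mice by presence. They did differ in whether the summit reached the threshold. It did so in all 10 libraries at 27 regions, in 2 to 9 libraries at 45 regions and in 1 library at 14 regions. Of those 14, F0 CD replicate 3 gave 6, F0 CD replicate 1 gave 3, F0 WD replicate 1 gave 2, and F0 CD replicates 2 and 5 and F0 WD replicate 3 gave 1 each. The regions were narrow, with a median width of 362 bp, and 59 were under 500 bp, while 6 reached 1 kb or more and the widest was 3547 bp. The summit position hardly moved between mice: the SD of the strongest summit over libraries had a median of 5.23 bp, and in 55 regions all 10 summits lay within 20 bp. In the 424 other regions of chromosomes 1 to 19 with a peak in every library the same SD had a median of 91.0 bp.

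Every summit could be turned back into whole reads, because its fold and its −log10 p together fix a read pileup and the background it was compared with. For all 605 summits the solution lay within 1.39% of a whole number of reads. The genome background, the lowest background that the caller used, was 2.11 to 4.42 reads per 200 bp over the 10 libraries. Summit reads were a median of 30.1 times this background at the 86 regions, and the reads of the surrounding 10 kb were a median of 1.90 times it. The surroundings here and below include the summit's own reads. In 44 regions the surroundings were under 2 times the genome background, and in 23 they were over 5 times it. Regions in surroundings under 2 times the background were thus more numerous than those over 5 times it. The latter were not all high over the whole 10 kb. In Chl1, chr6:103648996-103649383 had surroundings of 9.10 times the background with 90.8% of their reads at the summit.

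**Figure D1:**
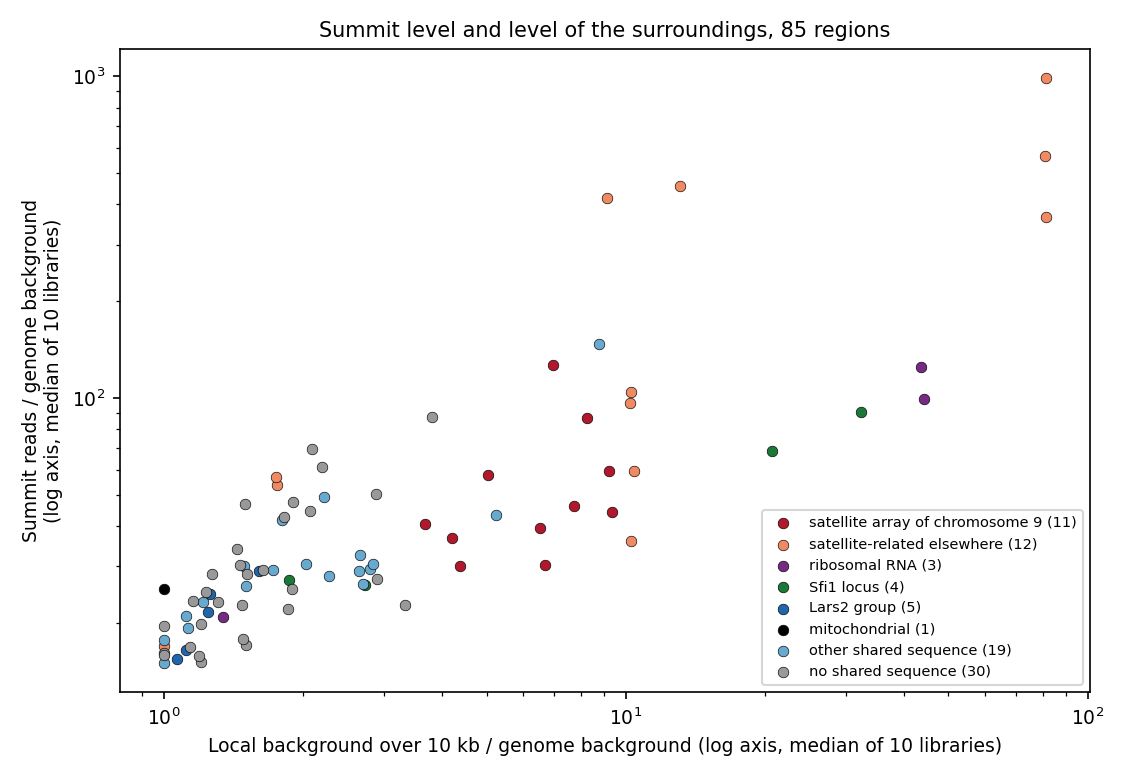
Each point is 1 of 85 of the 86 regions, with the local background over 10 kb divided by the genome background on the horizontal log axis and the summit reads divided by the genome background on the vertical log axis, both as medians of 10 libraries. The 3 regions of chromosome 2 at Gm10800 and Gm10801 lie at the far right near 81, the ribosomal RNA locus near 44, and the sharp summits in ordinary surroundings crowd at the left under 2.

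Whether the regions were collapsed high-copy loci could not be read from the assembly. There, the median 50-base word of a region occurred once in 69 of the 86 and more than once in 17, or 19.8%, against 12.3% of the 424 other regions with a peak in every library and 2.65% of all other consensus regions. By the looser measure of places in the assembly that align with the 200 bases around the summit at 80% identity or more, 20 regions had 1 place, 27 had 2 to 10, 12 had 11 to 100, and 27 had over 100. A word that occurs once in the assembly can still have many copies in the mouse: at chr2:98666195-98667393 the median word occurred once, in surroundings 81.3 times the genome background. The copy number in these mice was not measured, so a collapsed locus and one that is cut often cannot be told apart from the peak lists. An assembly gap lay within 10 kb of 19 regions, or 22.1%, against 5.90% of the 424 and 0.531% of the other consensus regions.

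Runs of at least 10 CA units, which were present in 48.1% of the 424 other regions with a peak in every library, were present in 2 of the 86, or 2.33%. The intervals compared were unlike. For CA runs, masked bases, GC and the words above, the 86 were intervals of strong summits alone, with a median of 362 bp. The 424 were merged from all peaks, with a median of 631.5 bp. Repeat-masked bases made up a median of 40.5% of a strong region and 84.1% of one of the 424. At least 90% was masked in 16 of the 86, or 18.6%, and under 10% in 18, or 20.9%. Among the 424 these shares were 36.1% and 10.6%. The median GC content was 43.5% and 46.3%, but it differed between the classes described below. It was 32.6 to 35.9% in the chromosome 9 array and 50.6 to 67.9% in the ribosomal RNA class. A tandem unit of 10 to 120 bases, counted when at least 60% of the bases within 300 bases matched at that shift, was found in 24 of the 86, or 27.9%, and in 223 of the 424, or 52.6%. With the regions that hold CA runs left out, the shares were 28.6% and 46.4%. Longer units were not looked for, so the period of 234 bp of the chromosome 9 array, given below, was outside this measure. The array regions lay on both sides of the cut, at 54.95 to 63.2%. The shares are therefore not those of all tandem repeats.

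In the annotation, 53 regions overlapped a gene, 21 of them in an exon and 32 in introns alone, and 33 overlapped none. A transcription start lay within 3 kb of 35 regions, or 40.7%, against 19.3% of the 424 and 17.1% of the other consensus regions. Some of these starts belonged to predicted genes inside satellite sequence, though how many was not counted. Of the 13 genes listed as such, the bodies of 9 overlapped 17 regions, among them Gm10800, Gm10801, Gm10717, Gm11168 and Gm21738. Of the ribosomal RNA genes listed, the 3 in the annotation, Gm42418, AY036118 and Gm26917, were all at strong regions, while none of the 180 n-R5s genes, which encode the 5S RNA, was. Of the small RNA genes, none annotated as snRNA, snoRNA or miscellaneous RNA overlapped a region, and 1 annotated as miRNA, Gm23935 in Zc3h7a, did. By position, 9 clusters with gaps of at most 200 kb held 34 of the regions, the largest being 11 regions in the 36234 bp of chr9:2999921-3036154.

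By sequence, 85 of the 86 regions fell into the 8 classes described here. Alignment of at least 100 bases linked 47 regions into 11 families, with 81.3 to 99.4% identity over 217 linked pairs. The array of chromosome 9 gave 11 regions, and 12 elsewhere were put in a satellite-related class, of which 9 aligned with the array itself. The ribosomal RNA class had 3, the Sfi1 locus 4, a group named here for Lars2 had 5, and the mitochondrial copy was 1 region. Another 19 regions shared sequence with a partner outside these classes and 30 shared none.

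**Figure D2:**
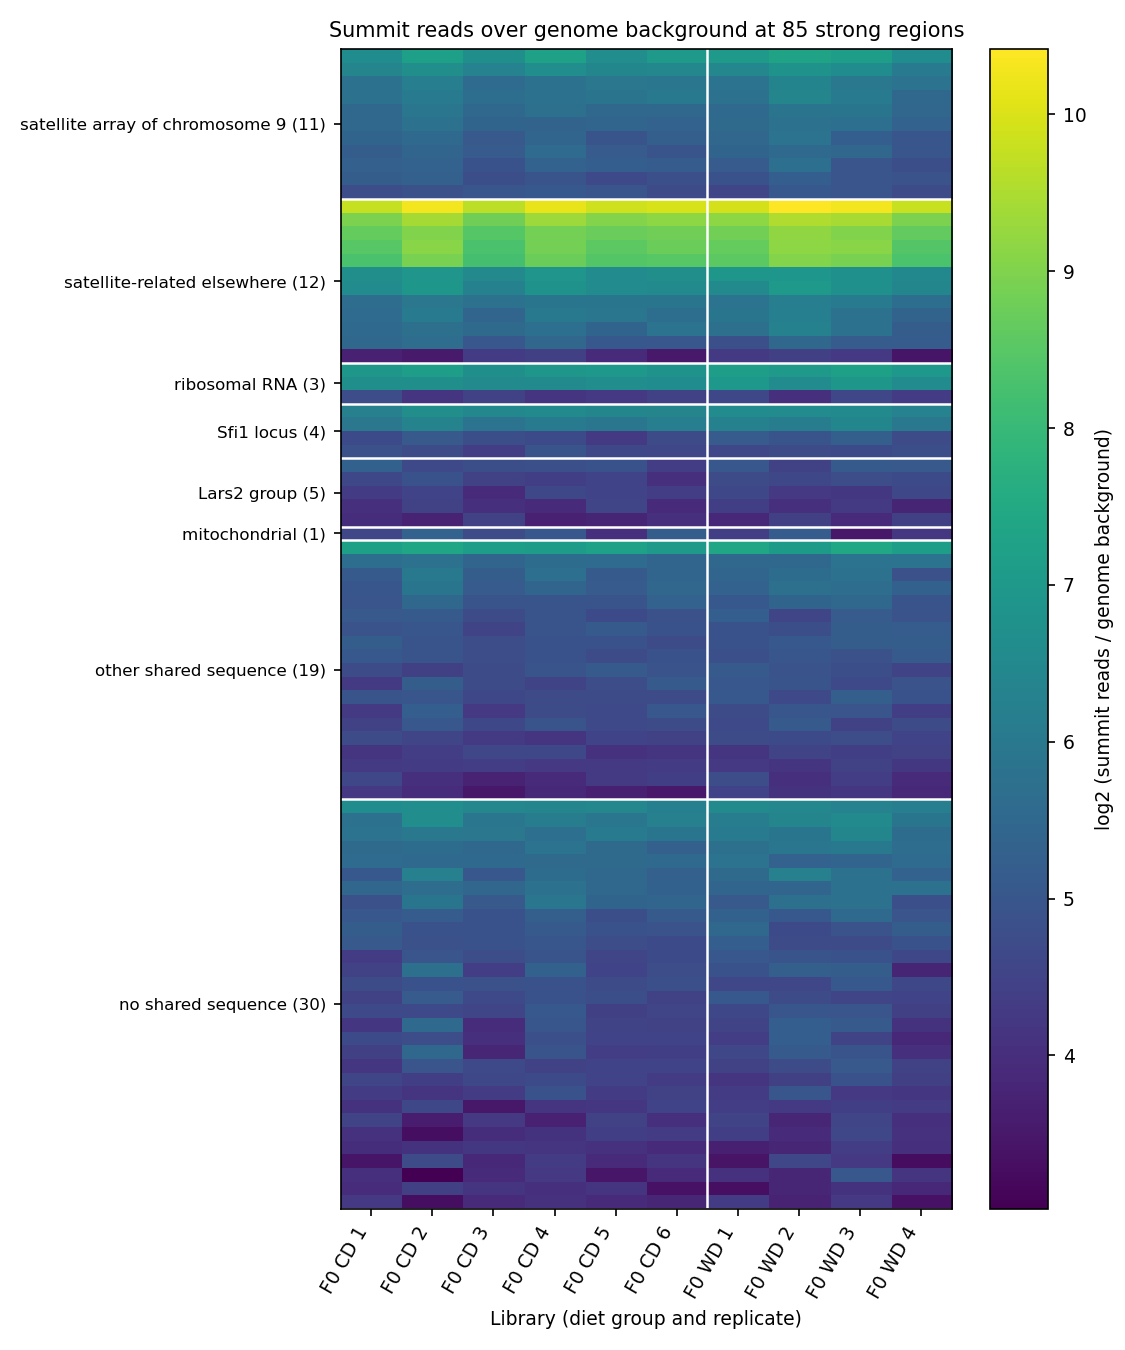
Rows are 85 of the 86 regions grouped by class with the number in each, columns are the 10 libraries, and colour is log2 of summit reads over the genome background. The brightest rows, with a median of up to 986 times the background, are in the satellite-related class, and no row changes as a whole between the 6 F0 CD columns and the 4 F0 WD columns.

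The 3 regions within 5202 bp of chr2:98662192-98667393 included both regions with the highest read levels, in surroundings 81.1 to 81.3 times the genome background. The strongest of all was chr2:98666195-98667393, in an exon of the predicted gene Gm10800. Its summit held 3020 to 3622 reads in F0 CD (median 3324) and 3240, 2880, 2880 and 3298 reads in the F0 WD mice. Its fold over the local background was 11.98 to 12.24 in F0 CD (median 12.2) and 11.9, 12.4, 12.4 and 12.2 in F0 WD, so the groups overlapped and the highest −log10 p was 2493. Around its summit alone lay 24.5% of the reads of 10 kb. In an exon of Gm10801, chr2:98662192-98662997 had folds of 6.61 to 7.01 in F0 CD (median 6.82) and of 6.91, 6.81, 7.0 and 6.88 in F0 WD. Between both genes, chr2:98664982-98665264 had folds of 4.36 to 4.69 in F0 CD and of 4.55, 4.81, 4.88 and 4.39 in F0 WD. Its sequence was not that of the array, with 14.1% masked bases and 5 places in the assembly.

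Both regions of highest fold lay in introns, alone in their part of the chromosome. At chr6:103648996-103649383, in Chl1, which encodes a neuronal cell adhesion molecule, the fold was 42.6 to 45.3 in F0 CD (median 43.8) and 43.9, 44.3, 44.95 and 43.2 in F0 WD. A median of 90.8% of all reads within 10 kb stood at this 1 summit. At chr9:35305124-35305672, in the predicted gene Gm33838, the fold was 32.1 to 34.0 in F0 CD (median 33.7) and 34.4, 35.6, 33.5 and 33.6 in F0 WD. Here 69.1% of the reads of 10 kb were at the summit, in a stretch that aligned with 212 places. Near the start of chromosome 12, chr12:3109783-3110183 had folds of 25.4 to 29.5 in F0 CD and of 28.9, 28.1, 25.4 and 22.8 in F0 WD. The values of both diets overlapped at each of these 3.

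**Figure D3:**
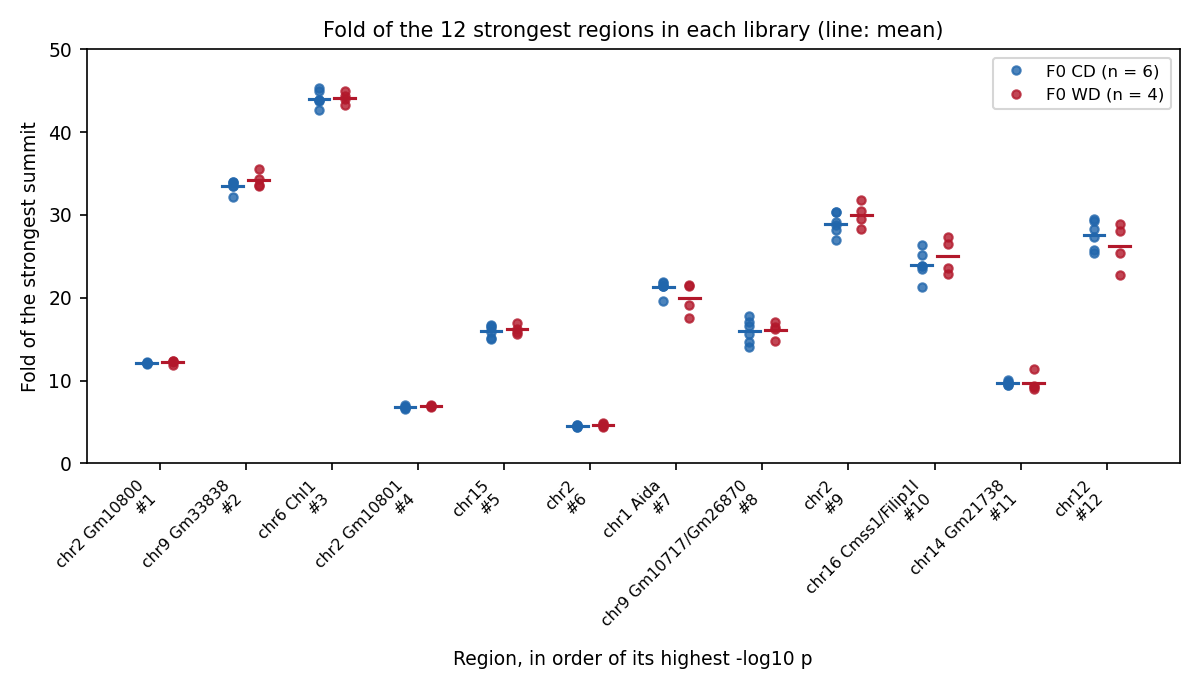
The fold of the strongest summit of each library (points) with the group mean (line) is plotted for the 12 regions of highest −log10 p, in that order from left to right, for 6 F0 CD and 4 F0 WD libraries. The fold runs from 4.36 beside Gm10800 to 45.3 in Chl1, and the points of both groups overlap at every region.

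The array of chromosome 9 stood 3.69 to 9.35 times above the genome background over 10 kb, and its 11 summits stood a further 4.22 to 16.3 times above that. The highest was chr9:3025390-3025691, in an exon of Gm10717, with folds of 14.1 to 17.9 in F0 CD (median 16.1) and 17.1, 16.2, 16.5 and 14.8 in F0 WD. The sequence of 10 of the 11 repeated itself at a period of 234 bp, the length known for the major satellite. Of the 12 regions of the satellite-related class, 9 aligned with this array over at least 100 bases at 90.8 to 98.0% identity. The other 3, chr2:98664982-98665264, chr6:103648996-103649383 in Chl1 and chr9:24541928-24542253, did not, and were joined to the class by alignment with chr2:98662192-98662997 at 88.2 to 95.4% identity. In 172 linked pairs the summit of the first region lay in the alignment, while that of its partner could lie outside. In 33 of the 172 both summits were within 20 bp along the alignment, a share not compared with chance. The offset was 0 between chr9:3006644-3006953 and chr9:3025390-3025691 and 11 bp between the latter and chr2:98666195-98667393.

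On chromosome 14, 4 regions within 3395 bp, in the predicted gene Gm21738, stood in surroundings 10.2 to 10.4 times the genome background. Their strongest, chr14:19417446-19418013, had folds of 9.46 to 10.1 in F0 CD (median 9.67) and of 11.4, 9.34, 9.18 and 9.04 in F0 WD. The library F0 WD replicate 1 was above all others there.

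The ribosomal RNA locus of chromosome 17 combined wide intervals with low folds. The interval chr17:39843045-39846591, over the long non-coding gene Gm26917 and the ribosomal locus CT010467.1, was 3547 bp wide. Its strongest summit held 321 to 502 reads in F0 CD (median 406.5) and 471, 275, 345 and 461 in F0 WD. Its surroundings were 43.5 times the genome background, so that the fold was only 2.58 to 2.96 in F0 CD and 2.78, 3.20, 2.68 and 2.65 in F0 WD. The summit had no fixed position, with an SD of 472 bp over libraries. The neighbouring chr17:39847583-39848740, over Gm42418 and AY036118, had folds of 2.13 to 2.56 over all libraries. Another region, chr6:3201328-3201659, overlapped no gene and had a fold of 9.26 to 15.4 in F0 CD and of 15.5, 9.78, 13.4 and 12.6 in F0 WD.

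A similar contrast was seen within Sfi1, the gene of a centrin-binding protein of the centrosome, on chromosome 11. The 2 regions chr11:3184340-3185630 and chr11:3192984-3193716 stood in surroundings 20.7 and 32.4 times the genome background, with median folds of 3.27 and 2.81. At chr11:3142472-3142804, in the same gene, the surroundings were 1.87 times the background and the median fold was 13.2. The median 50-base word of this region occurred 2 times in the assembly, and that of the 2 former regions once.

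The Lars2 group consisted of 5 regions on chromosomes 6, 9, 12 and 16 that shared stretches of 103 to 187 bases with 96.4 to 99.4% identity in 7 linked pairs. The region chr9:123461805-123462263 lay in the untranslated end of Lars2, the gene of mitochondrial leucyl-tRNA synthetase, chr16:35981553-35981911 in exons of Kpna1 and Gm15564, chr12:78350810-78351129 in an intron of Gphn, and both others outside genes. At Lars2 the fold was 12.9 to 18.2 in F0 CD (median 15.6) and 16.7, 12.6, 14.3 and 15.3 in F0 WD. At Kpna1 it was 12.2 to 16.6 in F0 CD (median 15.6) and 17.4, 13.7, 16.2 and 15.5 in F0 WD. The surroundings of all 5 were close to the genome background, at 1.07 to 1.61 times it. None of the 5 aligned with the annotated ribosomal RNA locus used here, which holds only a part of the ribosomal genes, so whether the group is ribosomal was not tested.

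The mitochondrial copy at chr1:24612573-24612915, over Gm10222 and Gm28438, was covered in full by bases 9663 to 10004 of the mitochondrial chromosome at 99.7% identity, a stretch with parts of ND3 and ND4L, which encode subunits of complex I. Its fold was 13.2 to 26.4 in F0 CD (median 23.0) and 16.5, 23.1, 8.15 and 14.6 in F0 WD. F0 WD replicate 3, with 26 reads, was the lowest of the 10 and F0 CD had from 60 to 120 reads. Reads assigned to the mitochondrial chromosome itself had been removed by the authors and were not available for comparison.

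The 30 regions that shared sequence with no other region included 3 of the 12 strongest, and 10 of the 30 reached the threshold in every library. At chr1:183299042-183299665, in an intron of Aida, the gene of an axin-interacting protein, the fold was 19.7 to 21.9 in F0 CD (median 21.4) and 21.4, 21.6, 19.1 and 17.6 in F0 WD. At chr2:3964398-3964714, 35259 bp from the nearest start, that of Gm13191, it was 26.9 to 30.4 in F0 CD (median 28.9) and 30.4, 29.5, 31.8 and 28.4 in F0 WD. A median of 66.99% of the reads of 10 kb stood at this summit, which lies in the run of 42-base units printed above.

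At chr16:57391350-57391766, in introns of Cmss1 and Filip1l, the fold was 21.3 to 26.4 in F0 CD (median 23.8) and 26.5, 23.6, 27.3 and 22.9 in F0 WD. At chr4:20191747-20192060, in an intron of Nkain3, which encodes a protein that interacts with the sodium pump, it was 20.95 to 28.9 in F0 CD (median 24.4) and 25.7, 30.0, 25.2 and 23.1 in F0 WD. The Plcb4 region chr2:135988487-135988848, in an intron of a phospholipase C gene, had folds of 9.24 to 18.9 in F0 CD (median 12.7) and of 12.7, 15.7, 16.2 and 9.84 in F0 WD. Its 26-base unit matched itself over 88.0% of the 300 bases around the summit. At the regions of chromosome 2 and Nkain3 with the 42- and 25-base units the same measure was 51.6% and 57.1%, under the 60% asked for above. Folds of both diets overlapped at all 5 of these regions.

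Among the 19 regions with a partner outside the larger classes, chr15:75086055-75087092 was the strongest, 6961 bp from the start of Gm28502 and in surroundings 8.78 times the genome background. Its summit held 357 to 639 reads in F0 CD (median 490.5) and 559, 278, 400 and 518 in F0 WD. Its fold was far steadier, at 14.99 to 16.7 in F0 CD (median 16.1) and 16.3, 15.6, 16.9 and 15.9 in F0 WD. Also in this class were the wide region chr6:29747790-29749127 in an intron of Smo, the Hedgehog signal transducer, with a median fold of 9.39, and 2 relatives of it on chromosome 17 with 87.8 and 91.1% identity.

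The regions that reached the threshold in 1 library were not seen in that library alone. The strongest of them was chr16:72629823-72630133, in an intron of Robo1, the receptor of the axon guidance ligands of the Slit family, in a sequence with 53410 places in the assembly. Its fold was 23.2 in F0 WD replicate 3, 13.2, 9.97 and 14.4 in the other F0 WD mice and 6.07 to 14.1 in F0 CD (median 12.3). F0 WD replicate 3 had 76 reads at Robo1 against 20 to 68 in the others. That this library was highest in −log10 p follows from choosing regions that passed in 1 library. The next were the array copy chr9:3035665-3036154, chr13:77438844-77439122 in an intron of 2210408I21Rik, chr11:3192984-3193716 at Sfi1 and Drg1, and chr13:44869475-44869762 in an intron of Jarid2, a chromatin regulator that acts with Polycomb, with highest −log10 p of 79.3, 75.6, 71.5 and 69.1.

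The threshold of 60 cut through a continuous range. Just inside it lay chr5:137152141-137152494 near the start of Muc3 with a highest −log10 p of 60.5, chr10:58231759-58232280 in Duxf3 with 60.6, chr17:39847583-39848740 with 61.4, chr14:19418076-19418344 with 61.5 and chr2:181929134-181929458 with 61.9. Just outside lay chr9:3001299-3001561 and chr15:75085413-75085806, both with 60.0 after rounding, chr10:3116853-3117204 and chr13:119601769-119602279, both with 59.3, and chr9:124256274-124257171 with 58.1. The 5 outside also had a peak in all 10 libraries.

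How many regions passed in a library went with its genome background. From a fixed fold the −log10 p rises with depth, so this is in part built into the rule and is given as description. Over the 10 libraries 40 to 70 regions passed, with 40 at the lowest background of 2.11 (F0 WD replicate 2) and 68 at the highest of 4.42 (F0 CD replicate 3). When the reads of each library were scaled down to the lowest background, an alternative chosen after the data were seen, 25 to 40 regions passed, with 40 and 25 in those same libraries.

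**Figure D4:**
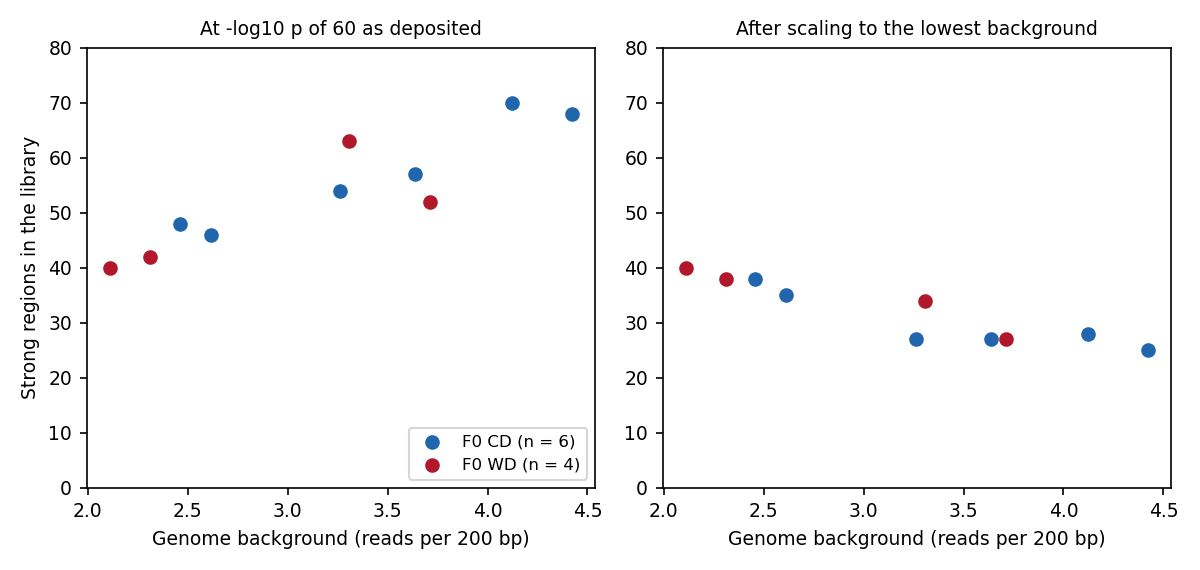
The number of strong regions in each of 10 libraries is plotted against its genome background in reads per 200 bp, as deposited on the left and after scaling to the lowest background on the right. The number runs from 40 to 70 and rises with the background on the left, runs from 25 to 40 and falls on the right, and the F0 CD and F0 WD points overlap in both.

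The reads at a summit did not all grow in step with the background. The background differed by 2.10 times between the highest and the lowest library, and summit reads by a median of 2.02 times, from 1.21 to 4.62 over the 86 regions. The slope of log reads on log background had a median of 0.656 and was under 0.5 at 22 regions. At chr2:98666195-98667393 in Gm10800 reads differed by 1.26 times with a slope of 0.316, and at chr6:103648996-103649383 in Chl1 by 1.23 times with a slope of 0.196. At chr15:75086055-75087092 they differed by 2.30 times with a slope of 0.969, and at chr1:183299042-183299665 in Aida by 2.202 times with a slope of 1.00. The mitochondrial copy had the widest range, from 26 to 120 reads.

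The diet comparison asked whether these regions differed between F0 WD and F0 CD sperm. The number of strong regions was 63, 40, 42 and 52 in the F0 WD mice, and 46 to 70 in F0 CD, with a mean of 49.25 ± 10.6 (SD, n = 4) against 57.2 ± 10.0 (SD, n = 6). The groups overlapped and the difference of −7.92 gave a two-sided p of 0.276 by exact permutation over mice. The genome background moved the same way, at 2.86 ± 0.771 (SD, n = 4) against 3.42 ± 0.794 (SD, n = 6), and after scaling to it the numbers were 34.75 ± 5.74 and 30.0 ± 5.22, a difference of 4.75 in the other direction (exact permutation p = 0.257). As a share of a library's summits the strong ones were 0.328 ± 0.0812% in F0 WD and 0.363 ± 0.128% in F0 CD, a difference of −0.0349 percentage points (exact permutation p = 0.629). The median log2 of summit reads over background across the 86 regions was 5.05 ± 0.109 in F0 WD and 4.96 ± 0.152 in F0 CD, a difference of 0.0950 (exact permutation p = 0.324). The choice of regions was open to 6 F0 CD and 4 F0 WD libraries, so F0 CD had more chances to bring a region in.

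Region by region, presence of a peak could not differ, since all 86 were present in every mouse: 0 of 86 were called by Fisher's exact test, also at an unadjusted p, against 1.02% of the 24763 consensus regions of the series. For the fold, 1 of 86 was called at an unadjusted p under 0.05 by the exact permutation test, against 1.78% of the 561 regions with a peak in every library, 0.891% lower and 0.891% higher in F0 WD, so the share of the strong regions was close to that of all. No region, strong or other, passed after adjustment over the 561. The smallest p that 210 splits of 4 and 6 mice allow is 0.00952. The fold was lower in F0 WD at 34 of the 86, or 39.5%, and at 43.5% of the 561, with median log2 differences of 0.0121 and 0.0185. Taken as reads over the genome background, 0 of 86 were called against 1.43% of the 561. The median log2 difference in these reads was 0.0978 over the 86 and 0.0914 over the 561. They were lower in F0 WD at 22.1% of the 86 and 29.9% of the 561, so the shift was not particular to the strong regions.

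The region called was chr9:2999921-3000741, at the outer end of the chromosome 9 array in Gm26870. Its fold was 9.89 to 11.5 in F0 CD (median 10.6) and 9.94, 10.0, 10.2 and 8.95 in F0 WD. On the log2 scale the means were 3.29 ± 0.0848 (SD, n = 4) and 3.41 ± 0.0712 (SD, n = 6), a difference of −0.119 (exact permutation p = 0.0381, adjusted p = 1). The groups overlapped, and in reads over the genome background the same region differed by 0.00502 (exact permutation p = 1). The widest difference in fold of the 86 was at the mitochondrial copy, where the log2 means were 3.87 ± 0.6253 (SD, n = 4) in F0 WD and 4.41 ± 0.376 (SD, n = 6) in F0 CD, a difference of −0.546 (exact permutation p = 0.133). At Robo1 it was 0.434 the other way (exact permutation p = 0.219). The Robo1 region was chosen through F0 WD replicate 3 alone, where it was high. Its difference is therefore description, and its p is no test of diet.

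**Figure D5:**
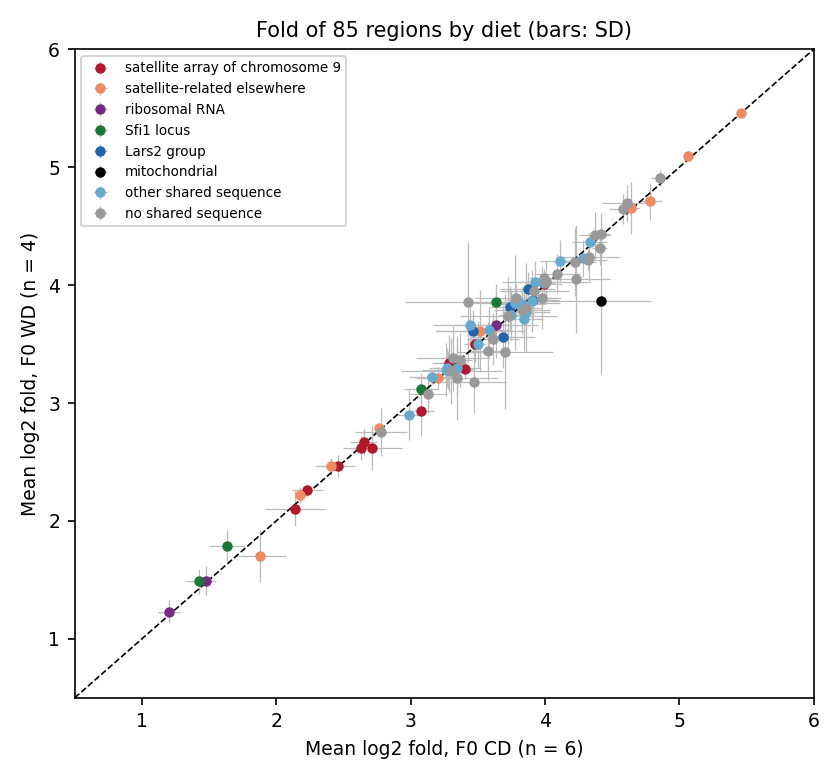
Mean log2 fold in 4 F0 WD libraries is plotted against that in 6 F0 CD libraries for 85 of the 86 regions, coloured by class, with bars of 1 SD and a dashed line of equality. The regions lie along the line, the median difference over all 86 being 0.0121, and the mitochondrial copy lies farthest below it at −0.546.

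By class, the median log2 differences of the fold were 0.00489 in the array of chromosome 9, 0.0123 in the satellite-related class, 0.0253 in the ribosomal RNA class, 0.109 at Sfi1, 0.0690 in the Lars2 group, 0.0185 in the regions with another partner and −0.0283 in those without one. Regions of a class that share sequence are not replicates of each other, and no class was tested. For the check of the cells, promoters of marker genes gave little to go by in any library. Of 9 sperm and spermatid genes 0 to 2 had a peak, of 7 epididymal epithelial genes 0 to 1, of 4 immune genes 0 to 2 and of 3 spermatogonial genes 0 to 1, so these lists could not settle the cell type from the peaks.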

How the data were processed

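Sperm ATAC-seq libraries of 6 F0 CD and 4 F0 WD mice had been deposited as 1 list of summits per library, and read counts were not used here. Per the labels and the methods, the authors' pipeline ran Trim Galore (0.6.10), Bowtie2 (2.4.5) on the mm10/GRCm38 genome and Picard (2.24.0) for duplicates, dropped alignments of low mapping quality, selected short fragments, and used MACS2 (2.2.7.1) for peaks and summits, library by library. The sources used here name no filter of known high-signal regions. The deposited columns used were the fold over the local background, the −log10 p and −log10 q of the summit and the summit offset, and the authors' score column was not used. Low-mapping-quality filtering can take away reads of sequence that occurs many times. The Bowtie2 setting in the methods also let more than 1 alignment of a read pair be reported, so a pair could count at several copies. Levels at repeats are those of the alignments that were left, and the effect of either step was not tested.

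Summits on chromosomes 1 to 19 with −log10 p of at least 60 were merged across libraries where intervals shared at least 1 bp, and the regions and lists were chosen with earlier results of these data known. A library's strongest summit stood for a region. Reads were solved from fold and −log10 p under the caller's Poisson model, tested on simulated data. Where the local background equals the genome background, the share of reads at the summit is a lower bound. A consensus region is one found in 2 or more libraries. Sequence came from GRCm38 (RefSeq), genes from GENCODE, and alignments from blastn (2.17.0), with overlapping places merged, so a tandem array can count as 1 place. Groups were compared by exact two-sided permutation tests over libraries with Benjamini-Hochberg adjustment, and presence by Fisher's exact test, in Python (3.11.15) with scipy (1.17.1). Read totals of the libraries were not used here, and the genome background, which rises with depth, stood in for them. The p-values measure the spread between mice. Alternatives were other thresholds, −log10 q, other merging, unique sequence alone, equal list lengths, scaling, and leaving out each library. Regions named were the 12 strongest, 5 of highest fold, 5 widest, 5 strongest of a single library, 5 on each side of the threshold and those called. The Lars2, Kpna1, Gphn, mitochondrial, Plcb4 and other regions outside this rule were chosen after their values were seen. For 1 region the sequence and values are not reported here. Replicate numbers were taken from the titles.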

Additional observations from a re-analysis of the deposited data

Results flagged for a closer look

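Of 30 groups of values tested among the strongest regions, 3 had a library far from the rest of its group, where chance gives about 5% of groups. The fold of chr9:35305124-35305672, in Gm33838, was lowest at 32.1 in F0 CD replicate 3, against up to 34.0 in the other F0 CD mice. The fold of chr1:183299042-183299665, in Aida, was lowest in F0 CD at 19.7, in replicate 6, and the fold of chr14:19417446-19418013, in Gm21738, was highest in F0 WD at 11.4, in replicate 1.

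Outside chromosomes 1 to 19, which the report covers, the X chromosome held 26 summits at or above the threshold of 60. They formed 3 regions, with a highest −log10 p of 548 and a highest fold of 41.8. Unplaced scaffolds of the assembly held 71 such summits, in 8 regions on 4 sequences, with a highest −log10 p of 354 and a highest fold of 30.6. The methods describe alternative chromosomes, chromosome Y and mitochondrial DNA as left out, and X is not among these. Neither set was tested between diets on its own.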

How the results depend on the processing

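The number of strong regions kept its direction, lower in F0 WD, and its side of the test under 18 of 19 alternatives. The exception was scaling to the lowest genome background, chosen after the data were seen, which turned the difference to 4.75. Without 1 library it ran from −12.5 to −4.83. The share of summits turned to 0.0403 percentage points under the same scaling, and without 1 library it ran from −0.0711 to 0.00155, the last being the value without F0 CD replicate 1. The cause of both turns was not tested. The median of reads over background stayed higher in F0 WD under all 15 alternatives, at 0.0308 to 0.148, and never passed the test. This direction was shared by the 561 regions with a peak in every library, whose median difference was 0.0914, so it was not particular to the strong regions. The count of regions called for fold was 2 at a threshold of 50, 0 as reads over background, and 0 to 3 without 1 library: 0 without F0 CD replicate 3 or 4 or F0 WD replicate 3, 2 without F0 CD replicate 6 or F0 WD replicates 1 or 4, and 3 without F0 WD replicate 2. The presence count stayed at 0, which all regions being present in every library fixes, so it says nothing about stability.

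Deviations of the libraries with the same replicate number correlated at 0.372, 0.528, 0.0358 and −0.39, so the numbers were not taken as pairs. With the replicate number as a block, the differences were −8.75 regions, −0.0334 percentage points and 0.0518 log2 units, with exact sign-flip p of 0.25, 0.75 and 0.875, where 4 pairs allow no p under 0.125.

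Depth limits which regions reach a threshold set on p. With 4 and 6 mice a difference has to be large against the spread between mice to pass. The lists hold no reads outside peaks, no copy numbers and no control DNA, so signal from many copies and signal from open chromatin cannot be told apart.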
